A study of Mus musculus with 4 samples.

Results

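The genes described here serve protein folding, stress signalling and transport out of the endoplasmic reticulum (ER), the compartment where secreted proteins are made. They were chosen by name, as a list of 38 genes, among 22911 genes named on the array. All 38 had a probe: 62 probes in all, with 20 genes on 1 probe and 18 on several, and the probe with the highest mean log2 signal represented its gene. All 38 were well above background on each of the 4 arrays by the scanner software's call, so no member was lost to a filter on dim probes, and no spot was saturated.

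RNA came from mouse PDL. The label stands for the periodontal ligament, which holds the tooth root in its bony socket. The mice were wild type (WT) or Mkx-KO, a knockout of Mkx, which encodes the tendon and ligament transcription factor Mohawk. Age was 10 or 4 weeks, so that the 4 groups were WT and Mkx-KO of the older age and WT and Mkx-KO of the younger. A single one-colour Agilent array stood for each, without biological replicates. Strain, sex, the knockout allele and the number of mice behind each preparation are not given in the sources used here. Mkx itself was lower on both Mkx-KO arrays, with log2 differences of -2.10 at 10 weeks and -1.65 at 4 weeks. On the 4 arrays, 61.8% to 66.6% of spots were well above background.

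Proteins that will be secreted enter the ER through the Sec61 channel and fold there with the help of chaperones, lectins and disulfide isomerases. When unfolded protein builds up, the sensors ATF6, IRE1 (Ern1) and PERK (Eif2ak3) start the unfolded protein response, which raises chaperones and the machinery that removes misfolded protein. Folded cargo leaves in COPII-coated vesicles, and escaped chaperones are brought back by KDEL receptors. In connective tissue the main cargo of this route is procollagen, which is too long for an ordinary vesicle and needs dedicated exit factors.

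A level below is the log2 signal minus the 75th percentile of its array, so a level of 0 is that percentile. A level belongs to 1 probe and is compared between arrays, never between genes. A difference is given in log2 units and was taken as Mkx-KO minus WT, or as 10 weeks minus 4 weeks. The error estimates of the scanner software gave each member's difference a technical error of 0.20 to 0.23, which does not cover variation between mice. A difference of at least 1.5-fold, or 0.58 on the log2 scale, was counted as called. With 1 array a group these calls are descriptions without a p-value.

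The labelled tissue could be checked against its markers. All 11 ligament and fibroblast genes, among them Postn, Col1a1, Tnmd and Scx, were well above background on every array, and their summed signal in units of the 75th percentile lay between 2942 and 3129 over the 4 arrays. Single markers moved more than this sum of mostly bright genes: Scx, a tendon and ligament transcription factor, read 2.10, 2.81, 3.32 and 3.63 for WT and Mkx-KO of 10 weeks and then WT and Mkx-KO of 4 weeks, and Tnmd, for tenomodulin, 1.26, 0.98, 2.07 and 1.88. Markers of neighbouring tissues differed far more between the preparations. The summed signal of 11 salivary and nasal gland genes was 1077 (WT) and 1473 (Mkx-KO) for the older mice. For the younger WT it was 548, but 2.12 for the younger Mkx-KO, where Dcpp2, Bpifa2, Smr3a and Bpifb9b were not above background. Elsewhere most of this sum came from Bpifb9b, at levels of 9.56 (WT) and 9.74 (Mkx-KO) for 10 weeks and 8.83 for the younger WT. At 10 weeks 7 of the 11 genes were higher in Mkx-KO and 4 lower. The sum of 6 olfactory neuron genes was 1.03 in Mkx-KO at 4 weeks, with Cnga2 and Ano2 not above background, and between 41.3 and 49.8 on the other arrays. Skeletal muscle genes summed to 23.4 in Mkx-KO at 4 weeks against 62.7 to 112 on the others, and neutrophil genes to 342 against 677 to 1154. The Mkx-KO preparation of 4 weeks thus gave the lowest signal of all 4 lists. Fewer cells of a type and less RNA per cell cannot be told apart in such bulk samples.

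The member genes shared an order over the arrays. For 34 of 38 the level was highest in Mkx-KO at 4 weeks, which was true of 44.0% of the 15504 genes measured on all 4 arrays. The 4 exceptions were Ern1, Herpud1, Ddit3 and Derl3. In Ern1 and Herpud1 both 10-week arrays lay above both 4-week arrays. Ddit3 was highest in WT at 4 weeks, and Derl3 was highest at 10 weeks and lowest in Mkx-KO at 4 weeks. WT at 10 weeks gave the lowest level for 21 members, against 34.2% of all genes.

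**Figure D1:**
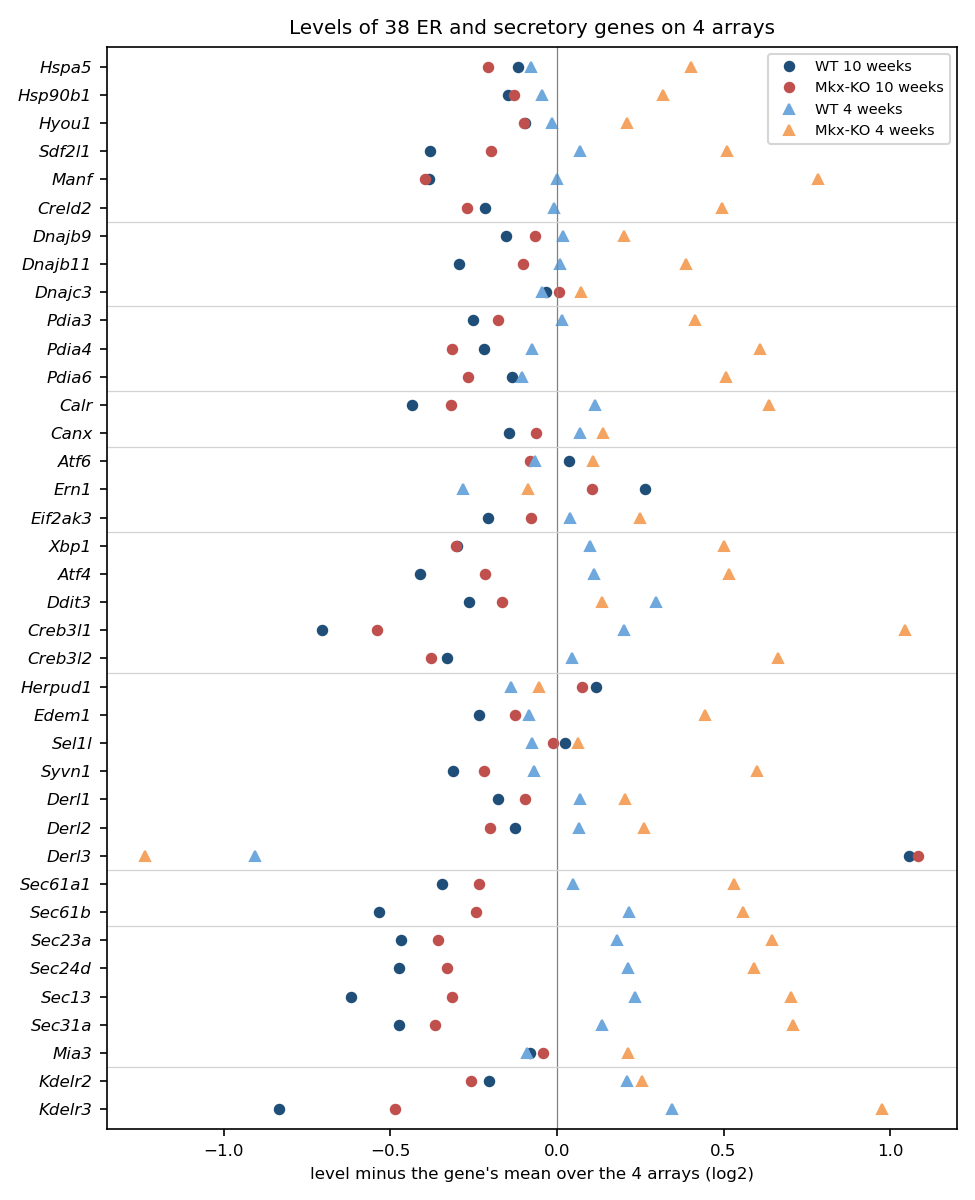
Level of each of the 38 members on each array, as the log2 level minus the gene's own mean over the 4 arrays; circles are 10 weeks, triangles 4 weeks, and grey lines part the functional groups. The Mkx-KO array of 4 weeks lies farthest to the right for 34 members, while Derl3 runs from -1.78 in Mkx-KO at 4 weeks to 0.54 in Mkx-KO at 10 weeks in absolute level.

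The first comparison set the knockout beside WT in the older mice, to see what loss of Mkx does to the ligament. It showed small differences throughout the list. Of 38 members 24 were above 0, against 51.5% of all 16457 genes measured on both arrays, and the median was 0.08 against 0.01 for all genes. None of the 38 was at least 1.5-fold higher, where 4.53% of all genes were, and none was at least 1.5-fold lower, where 4.39% were. The members ranged from -0.16 for Ern1 to 0.35 for Kdelr3.

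At 4 weeks the same comparison gave a shift to the Mkx-KO side in nearly the whole list. Of 38 members 36 were above 0, against 58.8% of all 15686 genes, and the median was 0.39 against 0.06. Called as at least 1.5-fold higher were 7 members, or 18.4%, against 2.95% of all genes: Creb3l1, Manf, Pdia4, Syvn1, Kdelr3, Creb3l2 and Pdia6. None was at least 1.5-fold lower, against 6.90% of all genes, and none reached 2-fold higher, against 0.472%. Counted from the median of all genes, Creb3l1, Manf, Pdia4 and Syvn1 were at least 1.5-fold higher, which is 4 of 38 against 2.20% of all genes. Above 0 at both ages were 22 members, against 29.2% of all genes. Just inside the fold threshold lay Pdia6 at 0.61 and Creb3l2 at 0.62, and just outside it Sec31a at 0.57 and Edem1 at 0.53. Beside this shift the ligament and fibroblast markers had a median of -0.02, with 5 of 11 above 0 and none called. The gland, olfactory, muscle and neutrophil lists had medians of -3.94, -4.97, -1.41 and -1.18. The gland and olfactory medians rest on 7 of 11 and 4 of 6 genes, since the others were not above background in Mkx-KO at 4 weeks. The epithelium list lay on the side of the ER genes, with a median of 0.74, 8 of 8 above 0 and 5 of 8 called higher, and its sum was 324 (WT) and 579 (Mkx-KO). At 10 weeks its median was -0.89, with none above 0. The part of these tissues in the ER genes' difference was not tested.

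**Figure D2:**
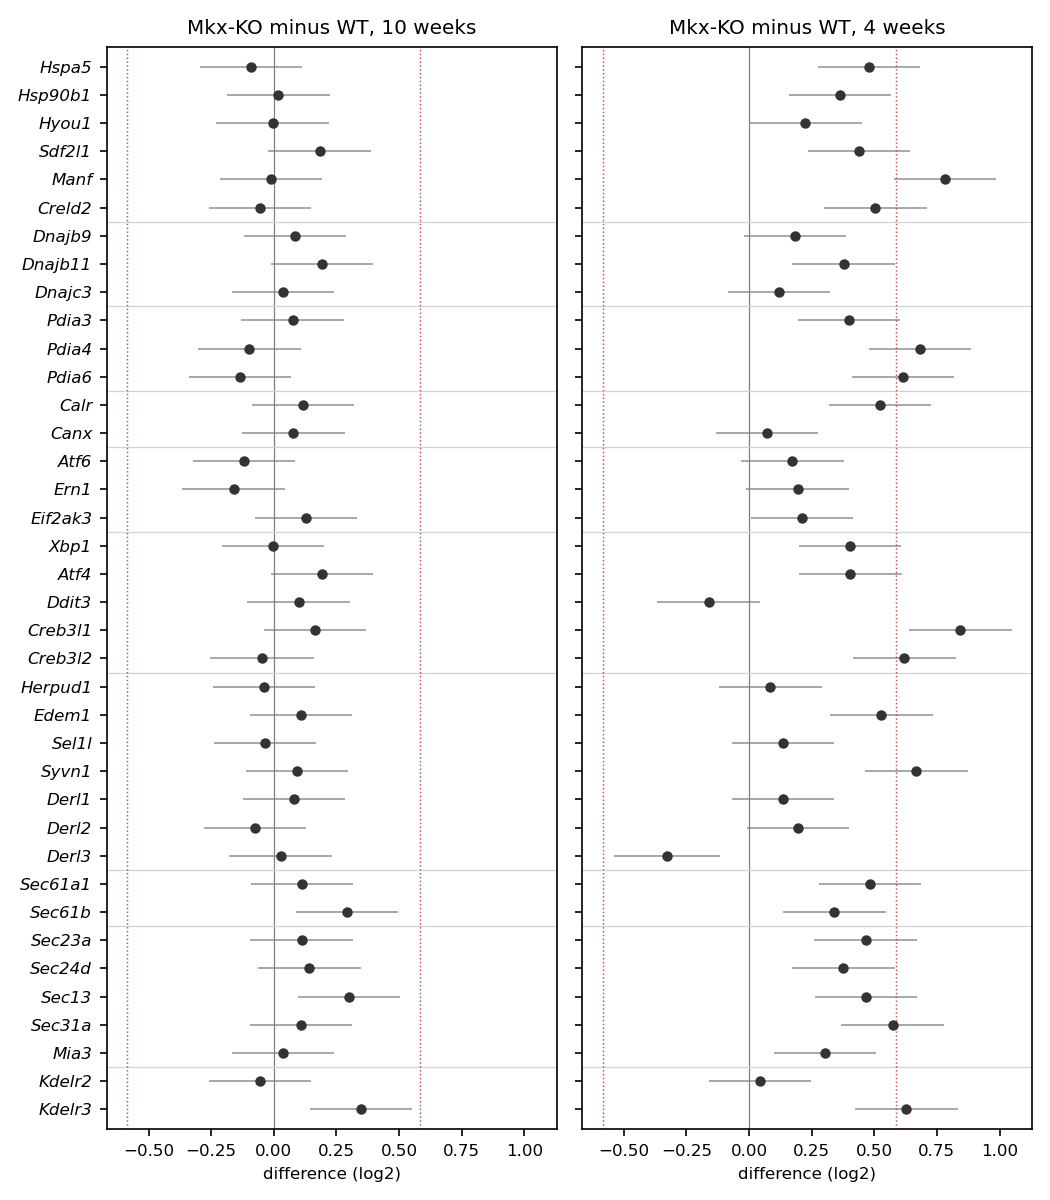
Mkx-KO minus WT difference (log2) of each member at 10 weeks (left) and 4 weeks (right); bars are the technical error of the scanner software, dotted lines mark a 1.5-fold difference, and grey lines part the functional groups. All points of 10 weeks lie inside the dotted lines, and 7 points of 4 weeks lie beyond the upper one.

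Among the general chaperones the differences of 4 weeks were positive in 6 of 6, with a median of 0.46. Hspa5 encodes BiP, the chief Hsp70 of the ER. It had 10-week levels of 5.76 (WT) and 5.67 (Mkx-KO) and 4-week levels of 5.80 and 6.28. The WT arrays of both ages and the Mkx-KO array of 10 weeks lay close together and the Mkx-KO array of 4 weeks stood apart, 1.39-fold above its WT counterpart. Hsp90b1 encodes GRP94, the ER member of the Hsp90 family, and had 10-week values of 6.25 (WT) and 6.27 (Mkx-KO), followed by 6.36 and 6.72 for 4 weeks. Manf, a small secreted survival factor that binds BiP, was the chaperone-group gene with the widest difference. It had levels of 2.16 (WT) and 2.15 (Mkx-KO) for the older mice and 2.55 and 3.33 for the younger, a difference of 0.78 (1.72-fold) at 4 weeks against one within the technical error at 10 weeks. Creld2, a stress-induced protein with isomerase activity, had 10-week levels of 3.84 (WT) and 3.79 (Mkx-KO) and 4-week levels of 4.05 and 4.55. Sdf2l1, a partner of BiP complexes, had 10-week values of 0.22 (WT) and 0.40 (Mkx-KO), followed by 0.67 and 1.11 for 4 weeks. Hyou1, the exchange factor GRP170, had the smallest difference of the group on its brightest probe, 0.23, but its other probes gave 0.54 and 0.71.

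The disulfide isomerases, which form and rearrange the bonds that hold folded proteins, all lay on the Mkx-KO side at 4 weeks. Pdia4 had levels of 0.91 (WT) and 0.81 (Mkx-KO) for the older mice and 1.05 and 1.74 for the younger. Its difference of 4 weeks was 0.68 (1.61-fold), while that of 10 weeks was -0.10. Pdia6 had 10-week levels of 5.56 (WT) and 5.42 (Mkx-KO) and 4-week levels of 5.59 and 6.20, which gave 0.61 at 4 weeks and -0.13 at 10 weeks. Pdia3, which works on glycoproteins held by the lectin chaperones, differed by 0.40 at 4 weeks. The lectin chaperones, which hold glycoproteins while they fold, gave a wide and a narrow difference, and the gap between them was not tested. Calr, for the soluble calreticulin, had 10-week values of 3.91 (WT) and 4.03 (Mkx-KO), followed by 4.46 and 4.98 for 4 weeks, a difference of 0.52 at 4 weeks. Canx, for the membrane-bound calnexin, had levels of 5.02 (WT) and 5.10 (Mkx-KO) for the older mice and 5.23 and 5.30 for the younger, which gave 0.07, less than its technical error. The DnaJ co-chaperones, which hand clients to BiP, were positive in 3 of 3 with small sizes: 0.38 for Dnajb11, 0.18 for Dnajb9 and 0.12 for Dnajc3.

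The promoters of these genes were searched for a known stress element. The ER stress response element is bound by ATF6 together with NF-Y and was first described in chaperone promoters. It was searched on both strands as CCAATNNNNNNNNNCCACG in RefSeq promoter windows of build GRCm38.p6, from 250 bases before to 50 bases after the gene start. Such a window was found for 31 of the 38 members. The other 7, Manf, Creb3l1, Hyou1, Sec61a1, Kdelr2, Atf6 and Derl1, had none. The element was in 9 of 31 (29.0%), against 37 of all 27025 genes in the table (0.137%). A second form, ATTGGNCCACG, which shares the CCACG letters, was in 2 members with no copy of the first, Dnajb11 and Herpud1, and in 12 genes in all (0.0444%). The elements are printed 5′ to 3′ on the strand that holds the match, with the fixed bases in capitals, because they occur in a larger share of the members' windows than of all windows. That larger share is no independent result. The members were chosen by name for ER folding and stress, and the element was first described in chaperone promoters. Base composition was not allowed for. Sdf2l1, Pdia3, Pdia4 and Dnajb9 had a window without either form.
Hspa5 chr2:34772025-34772043: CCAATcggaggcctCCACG
Hsp90b1 chr10:86705533-86705551: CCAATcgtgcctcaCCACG
Hsp90b1 chr10:86705638-86705656: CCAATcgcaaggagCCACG
Creld2 chr15:88819520-88819538: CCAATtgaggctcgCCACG
Pdia6 chr12:17266491-17266509: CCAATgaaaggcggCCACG
Calr chr8:84847075-84847093: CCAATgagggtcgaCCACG
Canx chr11:50325800-50325818: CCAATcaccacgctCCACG
Dnajc3 chr14:118937827-118937845: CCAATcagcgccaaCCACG
Syvn1 chr19:6046532-6046550: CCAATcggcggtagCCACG
Derl3 chr10:75893242-75893260: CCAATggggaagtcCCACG
Dnajb11 chr16:22857852-22857862: ATTGGcCCACG
Herpud1 chr8:94386377-94386387: ATTGGgCCACG

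Whole windows of 3 of these genes are given, on the strand of the gene with the element's fixed bases in capitals. Hspa5 is the textbook target, Pdia6 was called at 4 weeks, and Derl3 holds the element but went against the rest of the list; the 3 were chosen after their values were seen. The windows are chr2:34771840-34772139, chr12:17266339-17266638 and chr10:75893148-75893447, all on the plus strand, and in Derl3 the element lies on the opposite strand.
Hspa5: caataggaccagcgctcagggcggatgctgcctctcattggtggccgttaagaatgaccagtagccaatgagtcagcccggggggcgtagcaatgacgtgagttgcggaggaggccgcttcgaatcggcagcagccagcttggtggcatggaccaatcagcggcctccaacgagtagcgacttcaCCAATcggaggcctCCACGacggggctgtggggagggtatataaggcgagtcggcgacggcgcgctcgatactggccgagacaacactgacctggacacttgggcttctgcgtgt
Pdia6: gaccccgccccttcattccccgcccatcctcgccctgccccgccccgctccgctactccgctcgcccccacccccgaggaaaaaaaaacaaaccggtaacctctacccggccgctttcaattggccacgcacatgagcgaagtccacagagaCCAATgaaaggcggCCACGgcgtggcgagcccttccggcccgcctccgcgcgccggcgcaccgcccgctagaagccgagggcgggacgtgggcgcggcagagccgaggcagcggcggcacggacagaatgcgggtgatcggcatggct
Derl3: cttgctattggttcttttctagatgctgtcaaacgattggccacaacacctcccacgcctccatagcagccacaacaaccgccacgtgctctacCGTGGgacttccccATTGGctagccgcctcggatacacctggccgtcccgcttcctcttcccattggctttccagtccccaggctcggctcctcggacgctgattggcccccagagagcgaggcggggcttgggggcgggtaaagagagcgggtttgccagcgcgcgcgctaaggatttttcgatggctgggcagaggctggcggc

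Members with and without an element overlapped in their genotype difference. The members without a window are in neither group, among them Creb3l1 and Manf, which had the widest differences at 4 weeks. The 11 members with either form had a median of 0.38 at 4 weeks, from -0.33 to 0.67, and the 20 members with a window but no element had 0.40, from -0.16 to 0.68. At 10 weeks the medians were 0.03 and 0.10. A match is a description of the letters in the window and does not show that a factor binds there.

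The sensors were close between the genotypes. Ern1, for the nuclease that splices Xbp1 RNA, had 10-week levels of -0.01 (WT) and -0.17 (Mkx-KO) and 4-week levels of -0.55 and -0.36. Eif2ak3, for the kinase PERK, differed by 0.21 at 4 weeks and Atf6, for the membrane-tethered factor, by 0.17. All 3 were within or just above 1 technical error at both ages. Splicing of Xbp1 was not analysed here.

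Of the 5 stress transcription factors 4 were higher in Mkx-KO at 4 weeks. Creb3l1, which encodes OASIS, a membrane-bound factor that in mouse osteoblasts drives type I collagen, had the widest genotype difference of the 38 genes. It had 10-week values of 2.78 (WT) and 2.94 (Mkx-KO), followed by 3.69 and 4.53 for 4 weeks. Both 4-week arrays lay above both 10-week arrays, and the genotype difference was 0.84 (1.79-fold) at 4 weeks and 0.16 at 10 weeks. Its relative Creb3l2, for BBF2H7, which in mouse cartilage drives Sec23a, had levels of -0.94 (WT) and -0.98 (Mkx-KO) for the older mice and -0.56 and 0.06 for the younger, a difference of 0.62 at 4 weeks. Xbp1, for the factor downstream of IRE1, had 10-week levels of 5.18 (WT) and 5.18 (Mkx-KO) and 4-week levels of 5.58 and 5.98. Atf4, for the factor downstream of PERK, had 10-week values of 5.92 (WT) and 6.11 (Mkx-KO), followed by 6.44 and 6.84 for 4 weeks. Each was 0.40 higher in the younger Mkx-KO tissue. Ddit3, for CHOP, the factor tied to cell death under lasting stress, went the other way. It had levels of -0.31 (WT) and -0.21 (Mkx-KO) for the older mice and 0.25 and 0.09 for the younger, a difference of -0.16 at 4 weeks, less than its technical error. A list of 20 targets of ATF4 and CHOP had a median of 0.24 at 4 weeks, with 14 above 0, against 58.8% of all genes. In it 1 of 20 was called higher, against 2.95% of all genes, and 1 lower, against 6.90%. The gene called higher was Slc7a11, the cystine transporter (0.72), against -1.16 at 10 weeks. Slc7a5, an amino acid transporter named after its value was seen, was called lower (-0.88).

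The genes of ER-associated degradation, which return misfolded protein to the cytosol for destruction, ranged from -0.33 to 0.67 at 4 weeks. Syvn1, for the ubiquitin ligase HRD1, had 10-week levels of 3.49 (WT) and 3.58 (Mkx-KO) and 4-week levels of 3.73 and 4.40, and its difference of 4 weeks was 0.67. Sel1l, for the partner that holds HRD1 in place, had 10-week values of 3.95 (WT) and 3.92 (Mkx-KO), followed by 3.85 and 3.99 for 4 weeks, a difference of 0.14. Edem1, for a lectin that picks out misfolded glycoproteins, differed by 0.53, though its other probe gave 0.10. Herpud1, whose product recruits clients to HRD1, differed by 0.09, and the derlins, which help draw clients out of the ER, by 0.14 (Derl1) and 0.20 (Derl2). Derl3, for the derlin found in highly secretory cells, was the only member beyond 1 technical error on the WT side, at -0.33. The list of 23 further degradation genes had a median of 0.14, with none called in either direction. Of all genes 2.95% were called higher and 6.90% lower.

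The genes for entry, exit and retrieval were higher in Mkx-KO at 4 weeks in 9 of 9, against 58.8% of all genes, with Kdelr2 inside its technical error. For the Sec61 channel, Sec61a1 differed by 0.48 and Sec61b by 0.34. Sec31a, for the outer COPII coat, had levels of 2.93 (WT) and 3.04 (Mkx-KO) for the older mice and 3.54 and 4.12 for the younger, which gave 0.57. The other outer coat gene Sec13 differed by 0.47, and the inner coat genes Sec23a and Sec24d by 0.47 and 0.38. Mia3, for TANGO1, which loads procollagen at exit sites, differed by 0.30 on its brightest probe, while its other probes gave 0.16 and 0.10. The KDEL receptors too gave a wide and a narrow difference. Kdelr3 had 10-week levels of 1.71 (WT) and 2.06 (Mkx-KO) and 4-week levels of 2.90 and 3.52, so that Mkx-KO was above WT by 0.35 and 0.63 at 10 and 4 weeks. Kdelr2 had 10-week values of 3.63 (WT) and 3.57 (Mkx-KO), followed by 4.04 and 4.09 for 4 weeks, with differences of -0.06 and 0.05.

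Further genes of the same route, which are not members, lay on the same side at 4 weeks with smaller medians. They were 0.23 for 36 other folding genes (30 above 0), 0.21 for 28 genes of translocation, signal cleavage and glycosylation (26 above 0), 0.21 for 28 COPII and cargo receptor genes (24 above 0) and 0.28 for 21 genes of the COPI coat and Golgi return (20 above 0). For all genes the median was 0.06, with 58.8% above 0. None of the 28 translocation genes was called. Called higher, against 2.95% of all genes, were 2 of 36 folding genes, Pdia5 (0.72) and Fkbp11 (0.72). So were 1 of 28 COPII and cargo receptor genes, Ergic1 (0.63), and 1 of 21 COPI and Golgi return genes, Cope (0.59). Called lower, against 6.90% of all genes, were 1 of 36 folding genes, Cnpy2 (-0.89), and 1 of 28 COPII genes, Sec31b (-1.26). Both are named after their values were seen.

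**Figure D3:**
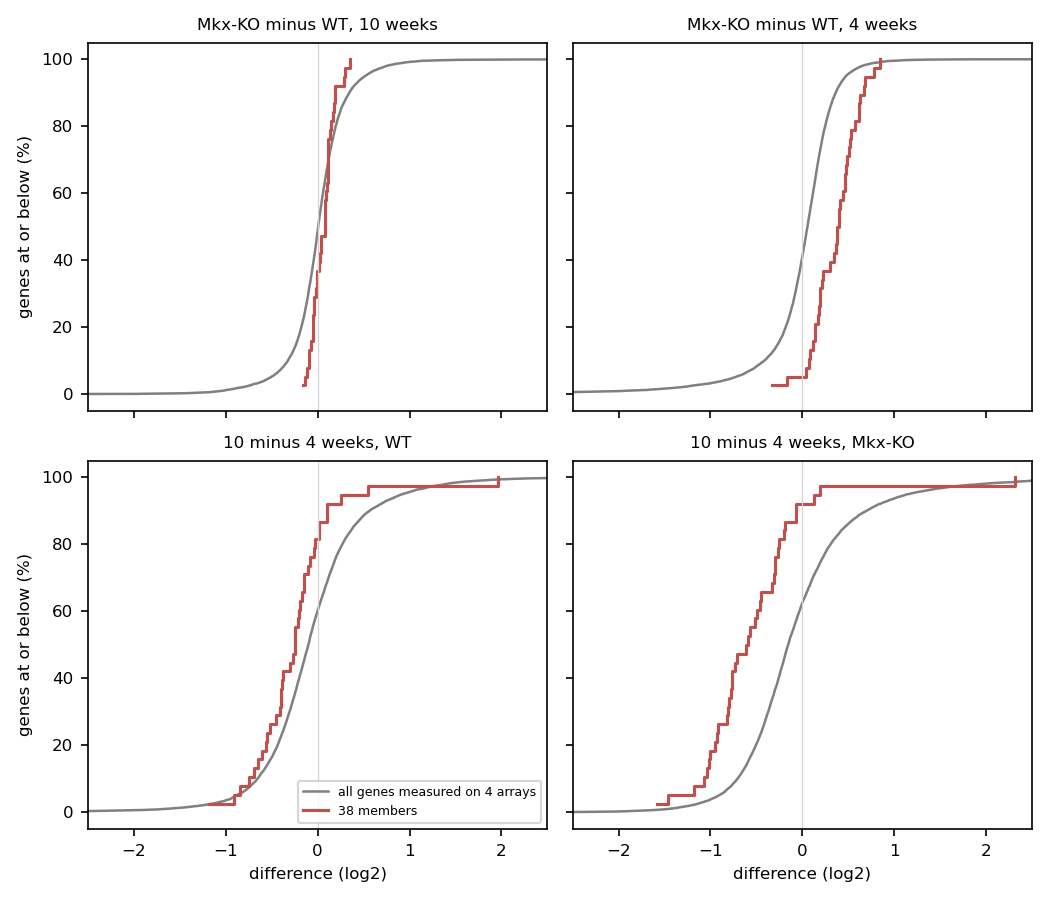
Share of genes at or below each difference (log2) in the 4 comparisons, for the 38 members (red) and the 15504 genes measured on all 4 arrays (grey); the axis ends at 2.5 on either side. The member curve lies near the grey one at 10 weeks and to its right at 4 weeks, and to its left for age, with Derl3 as the last step on the right.

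The genotype difference was larger at 4 than at 10 weeks in 35 of 38 members, against 55.9% of all genes. In 5 members, Manf, Pdia4, Pdia6, Creb3l1 and Creb3l2, the gap between the ages exceeded 2 technical errors, which is 13.2% against 6.98% of all genes. Whether the effect of the knockout differs between the ages could not be tested with 1 array a group, and this gap is the same quantity as the gap between the age differences of the genotypes.

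The age comparisons set 10 against 4 weeks within each genotype. They share no array with each other, but each shares its arrays with the genotype comparisons. In WT 31 of 38 members were lower at 10 weeks, and in Mkx-KO 35. Of all genes 40.5% were above 0 in WT and 37.7% in Mkx-KO. The member medians were -0.25 and -0.60, against -0.10 and -0.15 for all genes. At least 2-fold lower were 1 member in WT, against 3.83% of all genes, and 7 in Mkx-KO, against 3.84%. Lower at 10 weeks in both genotypes were 31 of 38 members, against 49.6% of all genes.

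Scaling moves this comparison as a whole. In the authors' deposited series table, which multiplies each array by 1 factor, the medians of all genes for age were 0.26 in WT and 0.14 in Mkx-KO, and the member medians were 0.11 and -0.31. In it 23.1% of all genes were at least 1.5-fold higher and 4.40% lower in WT, and 20.7% and 5.60% in Mkx-KO. The members stood 0.15 below the median of all genes in WT and 0.45 below in Mkx-KO, a distance that 1 factor per array cannot change. Counted from the median of all genes, 5 members were at least 1.5-fold lower in WT, against 9.36% of all genes, and 16 in Mkx-KO, against 8.98%. At least 1.5-fold higher by that count were 2 members in WT, Derl3 and Ern1, against 12.7%, and Derl3 alone in Mkx-KO, against 15.7%. On the levels as centred here the counts were 7, against 12.8%, and 20, against 15.5%.

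The COPII coat genes were lower at 10 weeks in both genotypes. Sec13 had levels of 1.10 (WT) and 1.40 (Mkx-KO) for the older mice and 1.95 and 2.42 for the younger, so the 10-week arrays were 1.80-fold lower in WT and 2.02-fold lower in Mkx-KO. Sec31a differed by -0.61 and -1.07 and Sec24d by -0.69 and -0.92. Sec23a had 10-week levels of -0.49 (WT) and -0.38 (Mkx-KO) and 4-week levels of 0.16 and 0.63. The 4 coat genes were called in both genotypes, while Mia3 differed by 0.01 and -0.26. The WT calls depended on the processing: of 6 alternatives that change values, Sec31a stayed past 1.5-fold in 2, Sec23a in 3, and Sec13 and Sec24d in 5, and in the series table none of the 4 did. An ACGTG core, the centre of sites bound by CREB3-like factors, was in the windows of 5 of 5 COPII members, 14 of 31 members (45.2%) and 21.8% of all genes. It was searched on both strands and can share bases with the CCACG of the stress element, and base composition was not allowed for. Members with and without it overlapped: the medians were -0.69 and -0.59 for age in Mkx-KO, -0.36 and -0.24 for age in WT, and 0.42 and 0.40 for genotype at 4 weeks.

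Kdelr3 and Creb3l1 had the widest age differences on the side of 4 weeks. Kdelr3 was 2.27-fold lower at 10 weeks in WT (-1.18) and 2.75-fold lower in Mkx-KO (-1.46). Creb3l1 differed by -0.91 and -1.59. With the 4 coat genes and Sec61b (-0.75 and -0.80) they made up the 7 members at least 1.5-fold lower in both genotypes, or 18.4%, against 6.55% of all genes. In WT, Kdelr3 stayed past the threshold in 6 of 6 such alternatives, Creb3l1 in 5 and Sec61b in 4. Osteoblast markers, 8 genes in all, summed to 180 (WT) and 280 (Mkx-KO) for the older mice and 461 and 330 for the younger. Their median age difference was -0.46 in WT, with 6 of 8 below 0, and -0.24 in Mkx-KO, with 4 of 8. The 11 ligament and fibroblast markers had medians of -0.12 and -0.11, with 10 and 7 below 0. Scx (-1.22 and -0.81) and Tnmd (-0.81 and -0.90) were among the lowest of these, while Dcn was higher at 10 weeks (0.48 and 0.33). The epithelium list had medians of 1.38 in WT, with 8 of 8 above 0, and -0.46 in Mkx-KO, with 6 of 8 below 0. The neutrophil list had medians of 0.32 and 2.30, with 7 of 8 and 8 of 8 above 0. The part of all these markers in the age differences was not tested. Outside the list, Copz2 of the COPI coat differed by -1.32 and -1.33 and Fkbp11, a prolyl isomerase of secretory cells, by -0.95 and -1.37. At least 1.5-fold lower at 10 weeks in Mkx-KO were 16 of 36 other folding genes, 13 of 21 COPI and Golgi return genes, 10 of 27 other COPII genes, 9 of 28 translocation genes and 4 of 23 other degradation genes, against 15.5% of all genes. In WT these counts were 5 of 37, 5 of 21, 3 of 28, 3 of 28 and 2 of 23, against 12.8% of all genes, so that most lay near that share.

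Apart from Canx (-0.21 and -0.20), the folding genes had wider age differences in Mkx-KO than in WT, and the gap between the genotypes was not tested. Hspa5 was level with age in WT, at -0.04, while its difference in Mkx-KO was -0.61. Manf gave -0.38 and -1.18, Pdia4 -0.14 and -0.92, and Pdia6 -0.03 and -0.78. Calr gave -0.55 and -0.96, and Xbp1 -0.40 and -0.80. The probes of Xbp1 spanned -0.83 to -0.40 in WT. The array of Mkx-KO at 4 weeks, with its low gland, olfactory, muscle and neutrophil signal, enters each of the Mkx-KO differences. The part of those tissues in the gap was not tested.

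Derl3 went against the list. It had 10-week values of 0.51 (WT) and 0.54 (Mkx-KO), followed by -1.45 and -1.78 for 4 weeks, so it was 3.91-fold higher at 10 weeks in WT and 4.99-fold higher in Mkx-KO, where 10.5% and 12.0% of all genes were at least 1.5-fold higher. The 2 adult arrays did not overlap the 2 young ones, and they lay within 0.03 of each other. Of all 38 members it was the only one at least 1.5-fold higher at 10 weeks in either genotype, and 5.32% of all genes were so in both. Bhlha15, for MIST1, a factor of serous secretory cells and plasma cells, stood in the gland list and followed the same order: 0.66, 0.83, -2.12 and -3.04, with the arrays in the same sequence as above. It is named after its values were seen. The plasma cell list summed to 8.31, 10.4, 8.20 and 8.92 on the same arrays. Sdc1, named after its values were seen, gave the largest part of each sum, at levels of 2.18, 1.97, 2.52 and 2.69. The sum therefore says little about the dimmer genes of the list. The list's median age difference was -0.25 in WT, with 4 of 6 measured genes below 0. In Mkx-KO it was 0.31, with 4 of 5 above 0. Within that list Mzb1 differed by -1.18 in WT and 0.97 in Mkx-KO, and Pou2af1 by -0.38 and 0.28. Jchain, also named after its values were seen, read 0.34, 1.71, -1.72 and -4.87, the last not above background. The part of Bhlha15 and the plasma cell genes in the Derl3 difference was not tested. Ern1 and Herpud1 were the other members higher at 10 weeks in both genotypes, by 0.55 and 0.19 and by 0.26 and 0.13, below the fold threshold.

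**Figure D4:**
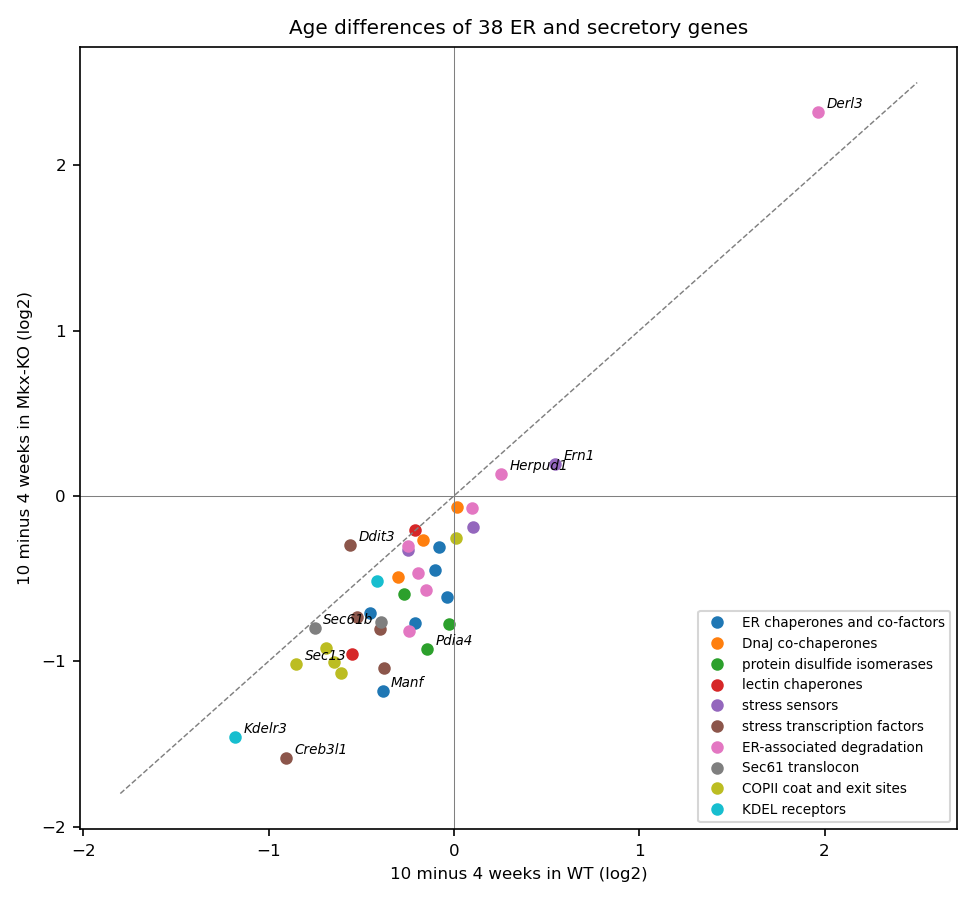
Difference between 10 and 4 weeks (log2) of each member in WT (horizontal axis) and in Mkx-KO (vertical axis), coloured by functional group; the dashed line marks equal differences. Most members lie below the dashed line at the lower left, Kdelr3 and Creb3l1 farthest down, and Derl3 alone lies at the upper right with 1.97 and 2.32.

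Over the 38 members the age differences of the genotypes had a Pearson correlation of 0.92, or 0.81 over 37 without Derl3, and 0.52 over the 15504 genes measured on all arrays. The points share arrays and probes, so this is a description.

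A model with 1 term for genotype and 1 for age was fitted to 16795 genes in limma 3.58.1, which left 1 residual degree of freedom. With 1 array a group, that degree of freedom is the gap between the ages in a gene's genotype difference. The SE and p of this fit rest on that gap and on limma's pooling over genes. They do not measure variation between mice, and a gene whose genotype difference changed with age got a wider SE. For genotype no gene reached an adjusted p of 0.05 (Benjamini-Hochberg). At an unadjusted p of 0.05 there were 455 genes (2.71%) and none of the 38 members, of which Kdelr3 had the lowest p in limma, 0.053, with a difference of 0.49 ± 0.15 (SE). For age none of 16795 genes reached the threshold either. Unadjusted, 4075 genes (24.3%) and 14 members (36.8%) did. The lowest adjusted p in limma, 0.18, was shared by Derl3 (2.14 ± 0.16), Kdelr3 (-1.32 ± 0.15) and Creb3l1 (-1.25 ± 0.24), among others. The same fit on simulated genotype differences recovered 0 of 50 genes changed by 1 log2 unit, 1 of 50 changed by 2 and 36 of 50 changed by 4.

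**Figure D5:**
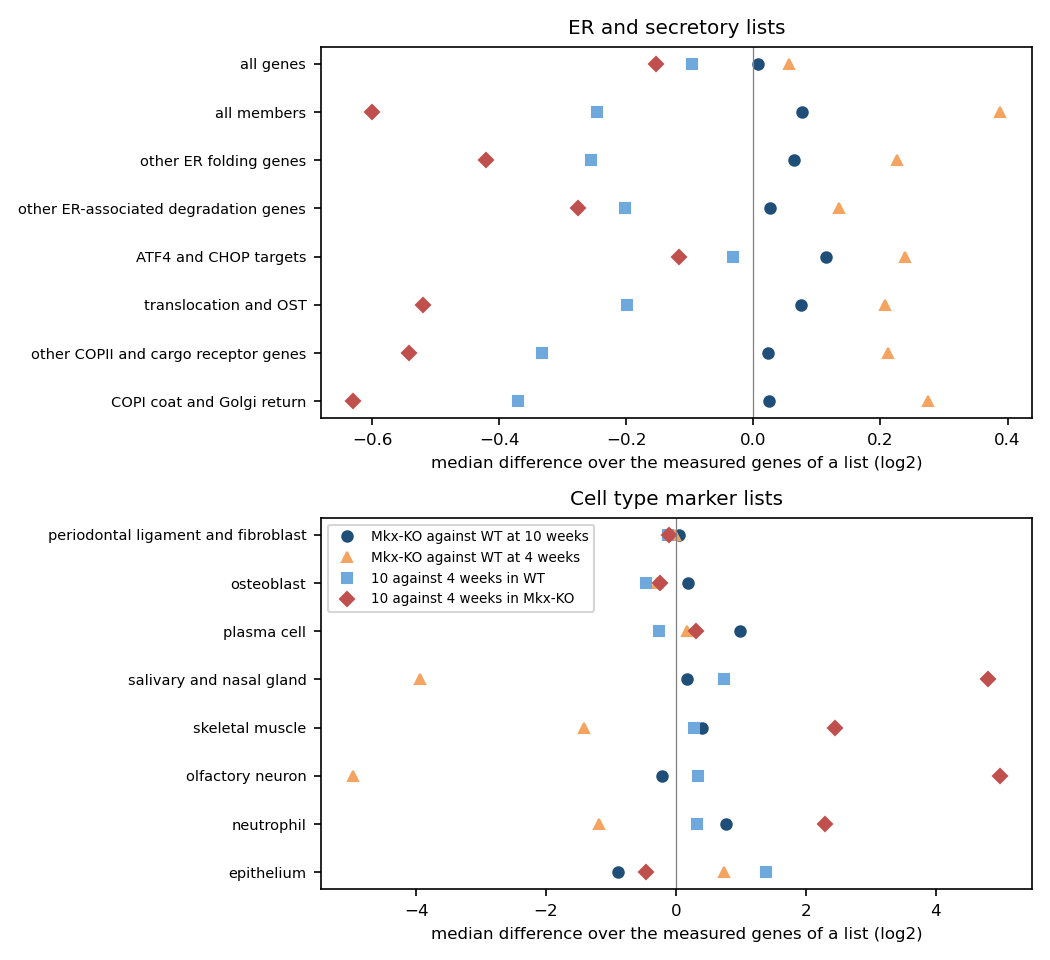
Median difference (log2) of each list in the 4 comparisons. Upper panel, all measured genes, the 38 members and 6 lists of other ER and secretory genes; lower panel, 8 lists of cell type markers, on a wider axis. In the upper panel Mkx-KO against WT at 4 weeks gives the highest median of each list and 10 against 4 weeks in Mkx-KO the lowest; in the lower panel the gland and olfactory lists reach -4.97 and 4.98 in comparisons with the Mkx-KO array of 4 weeks, while the ligament list stays near 0.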

How the data were processed

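Total RNA was extracted with ISOGEN and labelled with Cy3, per the labels' protocols. Per the file headers, the deposited values are spot intensity from Agilent Feature Extraction 11.5.1.1, background-subtracted and spatially detrended, on a linear scale; all 4 arrays were processed alike. The number of arrays limits the precision. The deposited series table also holds intensity. Its columns are the processed signal multiplied by a constant for the array, 1.81 (WT) and 2.08 (Mkx-KO) for the older and 1.64 and 1.54 for the younger mice, for a reason not given in the sources used here.

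Control spots and 60 to 77 outlier spots per array were left out, and spots of a probe were averaged as log2. Each array's 75th percentile was subtracted. Of 56604 probes with a value on every array, 32994 (58.3%) matched a gene through RefSeq accessions (GRCm38.p6 table). The array design is annotated on mm9, so no probe positions are given. Promoter windows are RefSeq's. A gene counted as measured when its probe was well above background on both arrays. The 38 members, the lists and the 1.5-fold threshold were chosen with earlier results of these data known. All members are named; of other lists, up to 3 genes per pathway list and 2 per marker list with the widest mean difference, and others where said. Marker lists cover ligament and fibroblast, osteoblast, plasma cell, gland, muscle, olfactory, neutrophil and epithelial genes; the osteoblast and epithelial medians were 0.18 and -0.89 for genotype at 10 weeks and -0.28 and 0.74 at 4 weeks. limma 3.58.1 in R 4.3.3, tested on simulated data, gave 2 false calls among 16795 genes. Tables were made with pandas 2.3.3 and numpy 2.4.6 under Python 3.11.15, and plots with matplotlib 3.10.9.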

Additional observations from a re-analysis of the deposited data

How the results depend on the processing

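Among 148 recomputed summary results, 137 stayed within 1.5 times of their count or within the technical error of their median. A changed threshold or filter cannot move the members' medians. The changed filters cannot move the members' fold counts either, since all 38 were well above background on all 4 arrays. Nor can a demand for 2 technical errors, since the 1.5-fold threshold is already larger than that. Those cases were bound to stay and are counted among the 137. The members' median for genotype ranged from 0.01 to 0.08 at 10 weeks and from 0.32 to 0.40 at 4 weeks over 10 alternatives. With a 2-fold threshold the 7 members higher in Mkx-KO at 4 weeks became 0, the 7 lower at 10 weeks in WT became 1, and the 20 in Mkx-KO became 7. Quantile normalization gave 11 in Mkx-KO. The series value table gave a median for age of 0.11 in WT, with 3 members higher and 1 lower, and of -0.31 in Mkx-KO, with 10 lower. In that table both 10-week arrays stand higher as a whole. For age in limma, normexp background correction (offset 50) called 31 genes and a fit without genotype called 5, with none of the 38 members among them. Of the 7 members called at 4 weeks, Kdelr3 stayed past 1.5-fold in 3 of 6 alternatives that change values, Pdia6 and Creb3l2 in 5, and Manf, Pdia4, Creb3l1 and Syvn1 in 6. Of 1520 single member values 121 moved by more than their technical error, 76 of them in the series value table and 30 under quantile normalization. No called value turned its sign. The 1520 include settings that change only the threshold or the filter, with 152 values each, and these values could not move. One alternative, the local median of neighbouring spots, was chosen after seeing the data; it gave 5 members higher in Mkx-KO at 4 weeks. Over 18 members with several probes, the probes' differences spanned up to 0.48, with a median of 0.15, and differed in sign in 13 of 72 cases. No paired analysis was possible because the labels give no replicate numbers and each group has 1 array.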
